A study of Mus musculus with 8 samples.

Results

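The low density lipoprotein (LDL) receptor family was followed through the genes Lrp1b, Lrp1, Lrp2, Vldlr, Lrp8, Lrp5, Lrp6, Lrp4 and Lrp3, 9 of the 23827 rows of a read count table from mouse sympathetic ganglia. The family was chosen by the level of Lrp1b, which was far lower in knockout than in control ganglia, and the other 8 genes by their family names. All 9 were among the 14592 genes with enough reads to be tested. RNA with poly(A) tails was sequenced from superior cervical ganglia, the uppermost ganglia of the sympathetic chain, of C57Bl6/n mice on postnatal day 1. The 4 conditional knockout animals (cKO) were KIF1Bb fl/fl and DBHcre +/-, and the 4 wild-type control animals (WT) were KIF1Bb fl/fl and DBHcre -/-, so that every animal of both groups carried the floxed allele of the kinesin gene and only cKO animals carried Cre. Each library came from the ganglion pair of 1 animal. Cre was driven by Dbh, the gene of dopamine beta-hydroxylase, so that the allele is recombined in noradrenergic cells while glia, vessels and connective tissue of the ganglion keep it.

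Receptors of this family are membrane proteins with clusters of ligand-binding repeats outside the cell and a short tail inside it. Large members such as Lrp1 and Lrp2 take up lipoproteins, proteases and their inhibitors by endocytosis, Vldlr and Lrp8 are the receptors through which reelin acts on neurons, Lrp5 and Lrp6 are co-receptors of Frizzled proteins for Wnt ligands, and Lrp4 receives agrin at the nerve-muscle synapse. Lrp1b is built like Lrp1 and is known for slow endocytosis, for binding the amyloid precursor protein and for expression in the nervous system.

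A feature of the tail is the NPXY motif, an asparagine, a proline, any residue and a tyrosine, which binds adaptor proteins. Its codons were searched in frame on the coding strand in the last 200 codons of the longest complete coding transcript of each gene (GENCODE vM21, GRCm38). Lrp1b, Lrp1 and Lrp2 held 2 each, Lrp4, Lrp8 and Vldlr held 1 each, and Lrp3, Lrp5 and Lrp6 held none. Of 18098 protein-coding genes with at least 200 codons, 1.49% held such codons in the same stretch. Members of a family share sequence, so this share is given as a description only. The motifs of Lrp1b are shown beside those of Lrp1, its closest relative, and those of Lrp8 beside Vldlr, the reelin receptor pair, with the motif codons in capitals and 12 bases on either side.
Lrp1b, first motif: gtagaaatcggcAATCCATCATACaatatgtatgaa
Lrp1, first motif: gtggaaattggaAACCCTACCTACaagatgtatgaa
Lrp1b, second motif: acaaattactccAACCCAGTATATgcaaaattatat
Lrp1, second motif: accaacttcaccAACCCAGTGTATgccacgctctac
Lrp8: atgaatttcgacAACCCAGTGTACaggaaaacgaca
Vldlr: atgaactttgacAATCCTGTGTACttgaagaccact
The Lrp1b motifs lie at chr2:40600317-40600352 in exon 89 and at chr2:40597036-40597071 in exon 91 of 91, on the minus strand. Those of Lrp1 lie at chr10:127539296-127539331 in exon 88 and at chr10:127539052-127539087 in exon 89 of 89, also on the minus strand. The Lrp8 motif is at chr4:107869049-107869084 in exon 17 of 19, and that of Vldlr at chr19:27247928-27247963 in exon 18 of 19, both on the plus strand. The second motif starts 42 codons from the stop codon in both Lrp1b and Lrp1, counting the stop codon itself.

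Likeness between members could misplace reads, so identical stretches were searched as well. The longest run of bases that the transcripts of Lrp1 and Lrp1b share exactly is 24 bases long.
Lrp1 and Lrp1b, shared run, all of it in capitals: TGACTGTGCTGATGGCTCTGATGA
It lies in exon 53 of Lrp1 (chr10:127556224-127556247) and in exon 68 of Lrp1b (chr2:40742763-40742786), both on the minus strand. No window of 50 bases of any member occurs in another member. Of 16245 such windows in Lrp1b, 52 also occur in Gm27348, a short RNA annotated inside its span that has no row in the table. In Lrp3, 188 of 4098 windows also occur in Slc7a10, whose exons overlap those of Lrp3 on the opposite strand, so that reads of these genes cannot be told apart without strand. In Lrp8, 34 of 4506 windows recur in 163 other genes.

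Library totals lay between 16214912 and 18114418 counts. Kif1b, the targeted gene, had 302, 191, 300 and 246 CPM (counts per 1000000 counts of the library, with library totals scaled by the TMM method) in cKO libraries 1 to 4, against 1450, 1320, 933 and 1190 CPM in WT libraries 1 to 4. It was counted over the whole gene, not by isoform. Across all tested genes, 397 passed edgeR's quasi-likelihood test at a Benjamini-Hochberg adjusted p below 0.05, which is 2.72% of them: 1.6% were higher and 1.12% lower in cKO ganglia. The median log2 fold change of cKO over WT was 0.0 over all tested genes, and the middle 50% lay between -0.15 and 0.16. All 20 markers of sympathetic neurons were tested and none passed, and their summed level was 24600 to 27900 CPM in cKO against 29000 to 31400 CPM in WT libraries.

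Libraries numbered 1 and 2 stood apart from the rest of their own groups by the GC content of genes, in both genotypes and in opposite directions. In the richest of 5 classes of genes by GC content, with a median GC content of 57.9%, the median deviation from the group mean of log2 CPM was 0.124 in cKO 1 and 0.16 in WT 1, against -0.151 in cKO 2 and -0.136 in WT 2. In the poorest class, with a median of 41.4%, it was -0.073 in cKO 1 and -0.085 in WT 1, against 0.104 in cKO 2 and 0.096 in WT 2. Among the members, Lrp3 (62.9% GC) and Lrp1 (57.9%) are the GC-richest, and Lrp1b (43.5%) and Vldlr (43.8%) the GC-poorest. Lrp1, Lrp3, Lrp4, Lrp5 and Lrp6 had their highest level in library 1 of each group. Lrp1 deviated by 0.6 in cKO 1 and 0.42 in WT 1, and Lrp3 by 0.54 and 0.63, more than the richest class. Lrp6, at 46.0% GC, deviated by 0.29 and 0.21, where the class with a median of 46% had -0.04 and -0.047. The cause of the high values in library 1 was not tested. Each member's log2 fold change is also given without the libraries numbered 1 and with per-library offsets for GC content.

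**Figure D1:**
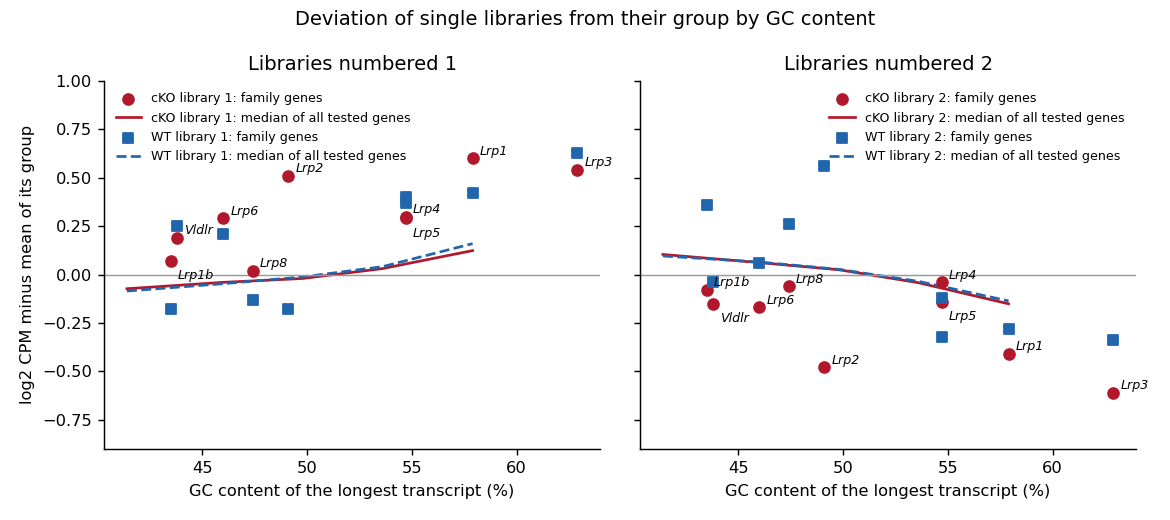
Deviation of libraries numbered 1 (left) and 2 (right) from the mean log2 CPM of their own group, on the vertical axis, against the GC content of each family gene's longest transcript in percent. Circles and squares are the 9 genes in cKO and WT, and lines join the medians of all tested genes in 5 GC classes; the lines rise with GC for the libraries numbered 1 and fall for those numbered 2, and Lrp3 and Lrp1 lie at the GC-rich end.

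Lrp1b, the receptor that led to the choice of the family, had 3.77, 3.4, 4.09 and 3.18 CPM in cKO libraries 1 to 4, against 13.8, 20.1, 11.9 and 18.1 CPM in WT libraries 1 to 4. Every cKO library lay below every WT library, with a wide gap between the highest cKO and the lowest WT value. The means were 3.61 ± 0.399 CPM in cKO and 16.0 ± 3.79 CPM in WT (SD, n = 4 each). The level in cKO ganglia was 22.6% of that in WT ganglia, a log2 fold change of -2.14 (SE 0.19), and it rests on 57 to 321 counts per library. Among the 11732 tested genes with a mean of at least 5 CPM it was the third lowest log2 fold change. These values chose the gene, so they are a description with no test. The log2 fold change was between -2.27 and -2.01 over 18 alternative settings, -2.23 without the libraries numbered 1 and -2.12 with GC offsets. In whole ganglia, fewer cells of a type and less RNA per cell cannot be told apart.

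**Figure D2:**
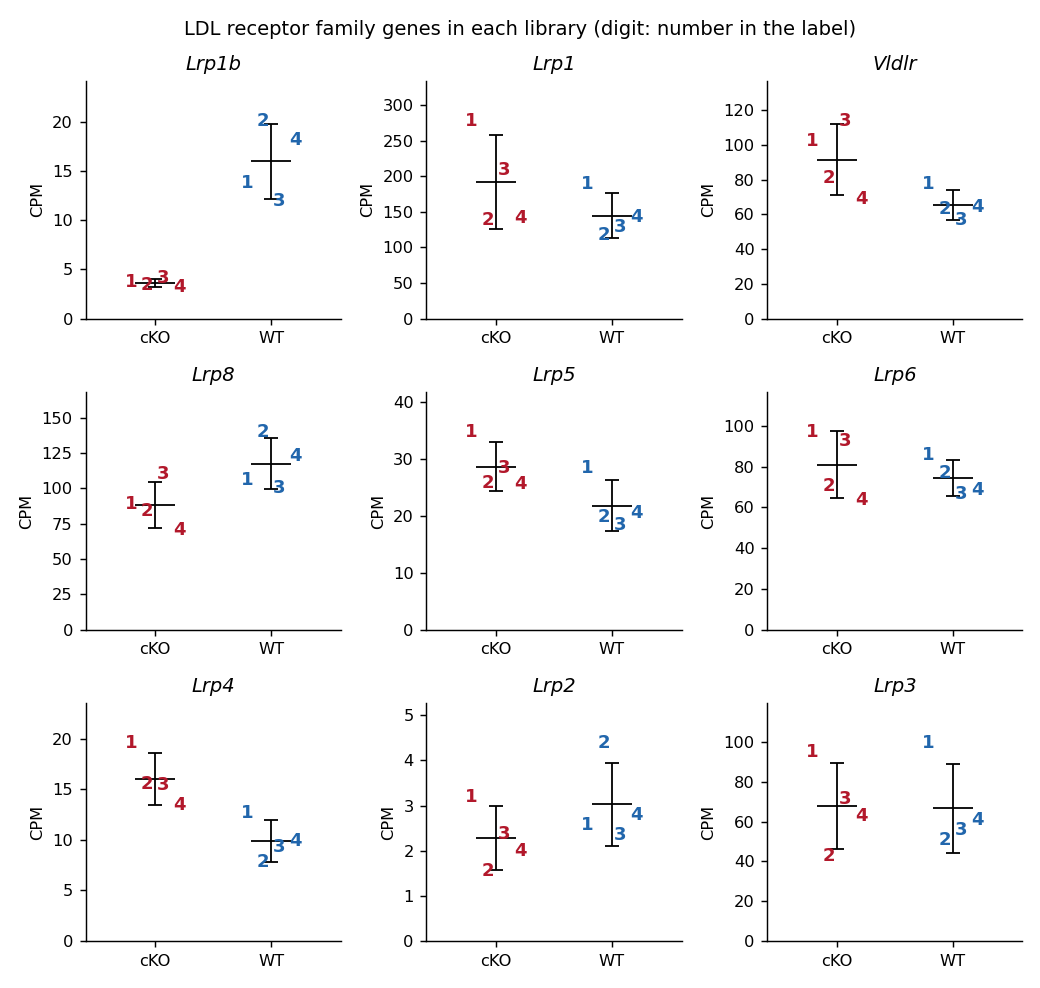
Level of each of the 9 family genes in CPM (vertical axes, from 0, a scale of its own for each gene) in cKO and WT libraries; digits are the library numbers, and bars show the mean and SD of 4 libraries. The cKO and WT values of Lrp1b and of Lrp4 do not overlap, while those of the other 7 genes do.

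Lrp1b was low against other transcripts of the same library as well. For every 100000 reads of the 20 neuron markers there were 15.3, 12.7, 15.3 and 11.4 Lrp1b reads in cKO libraries 1 to 4, against 46.2, 69.4, 38.0 and 58.4 in WT libraries 1 to 4. The groups did not overlap on this scale either. The ratio of Lrp1b to Lrp1 reads was 0.0136, 0.0245, 0.0197 and 0.0223 in cKO libraries, against 0.0728, 0.172, 0.0930 and 0.127 in WT libraries. Against Kif1b there were 0.0125, 0.0179, 0.0136 and 0.0129 Lrp1b reads per Kif1b read in cKO libraries, against 0.00949, 0.0152, 0.0128 and 0.0152 in WT libraries. These ratios, unlike those to the markers and to Lrp1, overlapped between the groups, with means of 0.0142 ± 0.00247 in cKO and 0.0132 ± 0.00272 in WT (SD, n = 4 each). The ratios of Lrp1b were formed with the levels already known and are given without a test.

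**Figure D3:**
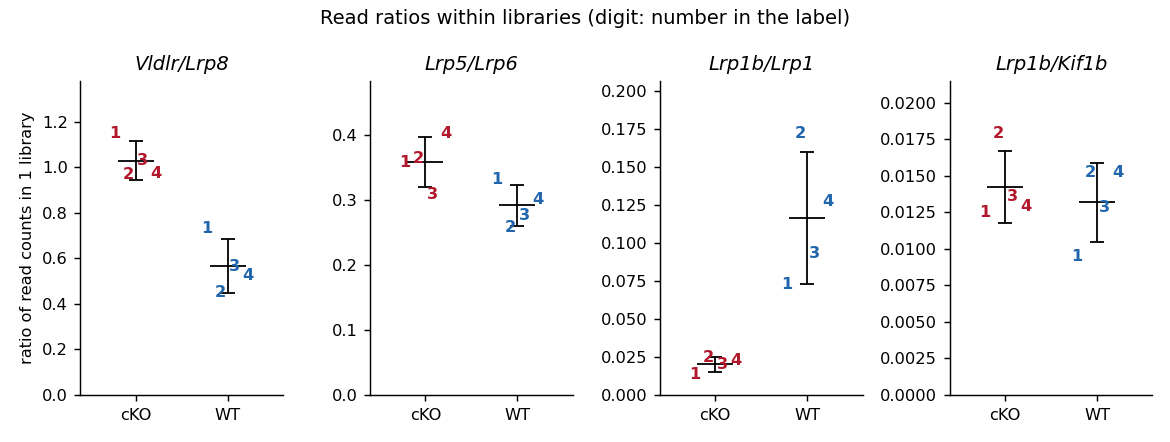
Ratios of read counts within a library (vertical axes, from 0) for Vldlr over Lrp8, Lrp5 over Lrp6, Lrp1b over Lrp1 and Lrp1b over Kif1b, in cKO and WT; digits are library numbers and bars the mean and SD of 4 libraries. The Vldlr over Lrp8 and Lrp1b over Lrp1 ratios separate the groups, the other two do not.

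The other members lie at chr10:127538161-127621148 (Lrp1, minus strand), chr2:69424340-69586065 (Lrp2, minus), chr19:27216484-27254231 (Vldlr, plus), chr4:107802261-107876840 (Lrp8, plus), chr19:3584828-3686564 (Lrp5, minus), chr6:134446476-134566965 (Lrp6, minus), chr2:91457511-91513779 (Lrp4, plus) and chr7:35200027-35215498 (Lrp3, minus) on GRCm38. Levels of different genes were compared per kilobase of exon. Within cKO ganglia the order was Lrp3 (14.5 CPM per kilobase), Lrp1 (10.8), Vldlr (9.08), Lrp8 (8.40), Lrp6 (5.91), Lrp5 (2.93), Lrp4 (1.52), Lrp1b (0.152) and Lrp2 (0.137). The first 5 overlapped with their neighbours in the order over the 4 libraries, as did Lrp1b and Lrp2. The steps below Lrp6, below Lrp5 and below Lrp4 had no overlap. In WT ganglia the order was Lrp3 (14.2), Lrp8 (11.1), Lrp1 (8.14), Vldlr (6.49), Lrp6 (5.44), Lrp5 (2.24), Lrp4 (0.944), Lrp1b (0.672) and Lrp2 (0.181). Here the steps below Lrp6, below Lrp5 and below Lrp1b had no overlap. Lrp1b thus overlapped with Lrp2, the lowest member, in cKO ganglia, and with Lrp4, the next higher member, in WT ganglia. It made up 0.649% of all reads of the 9 genes in cKO and 3.12% in WT ganglia.

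None of the 8 other members passed the test over all genes. At an unadjusted p below 0.05, a level that 16.8% of all tested genes reached, there were 4 of them: Vldlr, Lrp5 and Lrp4 with higher values in cKO ganglia, and Lrp8 with lower ones. The Wald test of DESeq2 called 1 of the 8, Lrp4, and 6.95% of all genes with an adjusted p. Limma voom called none of the 8, and 2.97% of all tested genes. The groups did not overlap for 1 of the 8, again Lrp4, a separation seen in 11.0% of all tested genes, 6.0% with higher and 5.02% with lower values in cKO. Including Lrp1b, 6 of the 9 log2 fold changes were above 0.

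**Figure D4:**
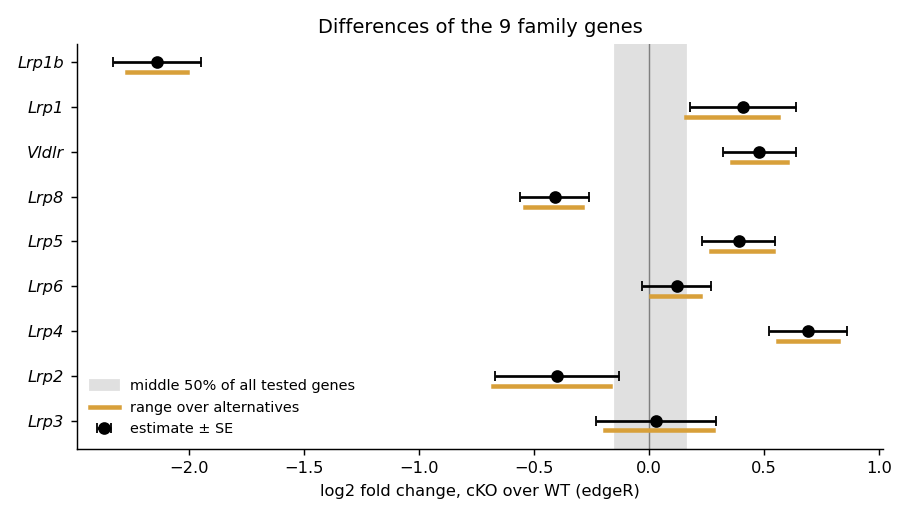
Log2 fold change of cKO over WT (horizontal axis) for the 9 family genes; points are edgeR estimates with their SE, orange bars the range over 18 alternative settings and the grey band the middle 50% of all tested genes. Lrp1b lies near -2.14, far from the others, which lie between -0.41 and 0.69.

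Among the endocytic receptors, Lrp1, which clears protease complexes and apolipoprotein E particles, had 278, 139, 208 and 142 CPM in cKO libraries 1 to 4, against 189, 117, 128 and 143 CPM in WT libraries 1 to 4. Library 1 was the highest in each group, and the groups overlapped. The log2 fold change was 0.41 (SE 0.23) with an edgeR adjusted p of 0.43. It was 0.33 without the libraries numbered 1, 0.37 with GC offsets and 0.16 without cKO 1 alone. Lrp2, or megalin, which is best known from the kidney tubule, was close to the limit of counting with 26 to 70 counts per library. It had 3.20, 1.55, 2.38 and 2.00 CPM in cKO libraries and 2.57, 4.39, 2.35 and 2.80 CPM in WT libraries, with overlap and a log2 fold change of -0.40 (SE 0.27, with 0.538 as the edgeR adjusted p). Single libraries moved this estimate: it was -0.17 without WT 2, -0.26 without cKO 2 and -0.62 without cKO 1. It was -0.68 without both libraries numbered 1 and -0.41 with GC offsets. Of 6 tested genes that work with megalin in uptake, none passed. Dab2, its adaptor, had 0.19 (SE 0.20) as its log2 fold change, and Ttr, the thyroxine carrier transthyretin, had -0.23 (SE 0.24).

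The estimates for the reelin receptors were of opposite sign. Vldlr had 102, 81.0, 114 and 68.6 CPM in cKO libraries 1 to 4, against 77.4, 63.1, 56.6 and 64.4 CPM in WT libraries 1 to 4. Of the cKO values, 3 lay above all WT values and that of cKO 4 lay among them. Lrp8, also called apolipoprotein E receptor 2, had 88.7, 83.7, 110 and 70.6 CPM in cKO libraries, against 106, 140, 100 and 123 CPM in WT libraries. Here 3 of the cKO values lay below all WT values, and that of cKO 3 lay above WT 1 and WT 3. Neither gene passed on its own: the log2 fold change was 0.48 (SE 0.16, edgeR adjusted p = 0.157) for Vldlr and -0.41 (SE 0.15, edgeR adjusted p = 0.203) for Lrp8. Without the libraries numbered 1 and with GC offsets it was 0.52 and 0.50 for Vldlr, and -0.46 and -0.38 for Lrp8.

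Within a library, there were 1.15, 0.968, 1.03 and 0.972 Vldlr reads per Lrp8 read in cKO libraries 1 to 4, against 0.731, 0.452, 0.565 and 0.523 in WT libraries 1 to 4. All cKO ratios were above all WT ratios, with means of 1.03 ± 0.0863 in cKO and 0.568 ± 0.118 in WT (SD, n = 4 each). A two-sided exact permutation test over the 70 possible groupings gave p = 0.0286, the lowest value it can reach, and 0.0571 after adjustment over the 2 ratios tested, which does not pass. These genes were paired after their levels were seen, so the p supports nothing. Markers of glia, which were also higher in cKO libraries, summed to 3240 to 3780 CPM there against 2140 to 2750 CPM in WT libraries. Apoe alone made up most of these sums, with a mean of 2140 CPM in cKO and 1380 CPM in WT ganglia. The part of glia in the levels of Vldlr and Lrp8 was not tested.

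Of 21 tested genes of the reelin pathway, none passed, and the median log2 fold change was -0.02. The smallest p values belonged to Efnb1, an ephrin of the B class, and Itga3, an integrin subunit reported to bind reelin. Efnb1 had a log2 fold change of 0.42 (SE 0.11, with 0.0809 as the edgeR adjusted p) and Itga3 one of -0.52 (SE 0.15, with 0.0939 as the edgeR adjusted p). The groups did not overlap for either gene. Reln, the ligand itself, is named here although its values were seen first. It had 77.8, 56.7, 52.8 and 56.6 CPM in cKO libraries, against 48.1, 55.5, 42.4 and 47.1 CPM in WT libraries, with a log2 fold change of 0.34 (SE 0.14, with 0.252 as the edgeR adjusted p), which was 0.18 without cKO 1, its highest library.

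Neither of the Wnt co-receptors passed. Lrp5 had 34.7, 25.7, 28.4 and 25.5 CPM in cKO libraries 1 to 4, against 28.4, 19.8, 18.3 and 20.5 CPM in WT libraries 1 to 4. Only WT 1 reached the cKO values, and the log2 fold change was 0.39 (SE 0.16, edgeR adjusted p = 0.247). Without the libraries numbered 1 the log2 fold change was 0.44 and the edgeR adjusted p 0.0791, and with GC offsets they were 0.36 and 0.216. Lrp6, the more abundant of the pair, had 97.1, 70.5, 92.4 and 63.4 CPM in cKO libraries, against 85.9, 77.1, 66.5 and 68.3 CPM in WT libraries. The groups overlapped widely, and the log2 fold change was 0.12 (SE 0.15, edgeR adjusted p = 0.787), with a 95% interval from -0.18 to 0.42. It was 0.10 without the libraries numbered 1, 0.14 with GC offsets and between 0.01 (without cKO 1) and 0.22 (without cKO 4) with single libraries left out. The ratio of Lrp5 to Lrp6 reads was 0.357, 0.364, 0.308 and 0.402 in cKO and 0.331, 0.257, 0.276 and 0.301 in WT libraries, with overlap (exact two-sided permutation p = 0.0571, also 0.0571 adjusted over the 2 ratios tested). The members were chosen with earlier results of these data known, so this p supports nothing either.

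Among 28 tested partners of Lrp5 and Lrp6, none passed, and the median log2 fold change was 0.07. Fzd10 and Fzd2, both Frizzled receptors for Wnt proteins, had the smallest p values. Fzd10 was barely detected, with 0.914, 1.73, 1.08 and 1.78 CPM in cKO libraries against 0.552, 0.689, 0.515 and 0.304 CPM in WT libraries, and its log2 fold change was 1.41 (SE 0.33, edgeR adjusted p = 0.0518). Fzd2 had 28.0 ± 2.75 CPM in cKO and 18.5 ± 3.71 CPM in WT ganglia (SD, n = 4 each), with a log2 fold change of 0.60 (SE 0.15, with 0.0656 as the edgeR adjusted p). The groups did not overlap for either gene. A further list held chaperones of the family, Dkk genes, Sostdc1 and Kremen1, and none of its 7 tested genes passed. All 7 log2 fold changes were above 0, from 0.01 (Lrpap1) to 0.46, with a median of 0.36. The chaperones Lrpap1 and Mesdc2 had the lowest values, 0.01 and 0.08. Dkk1, which binds Lrp6 and blocks it, had 71.9, 76.3, 74.2 and 75.8 CPM in cKO libraries against 65.0, 48.4, 44.8 and 58.4 CPM in WT libraries (log2 fold change 0.46, SE 0.12, edgeR adjusted p = 0.0779). Sostdc1, an antagonist of the same co-receptors, had a log2 fold change of 0.46 (SE 0.16, with 0.177 as the edgeR adjusted p).

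Lrp4, the agrin receptor, came closest to the threshold. It had 19.6, 15.5, 15.4 and 13.5 CPM in cKO libraries 1 to 4, against 12.7, 7.77, 9.28 and 9.91 CPM in WT libraries 1 to 4. Every cKO library lay above every WT library, with a narrow gap between cKO 4 and WT 1. The means were 16.0 ± 2.56 CPM in cKO and 9.91 ± 2.06 CPM in WT (SD, n = 4 each), a log2 fold change of 0.69 (SE 0.17) with an edgeR adjusted p of 0.0644. The adjusted p fell below 0.05 under 6 of 18 alternative settings: 0.00826 with DESeq2's Wald test, 0.0455 with library size alone, 0.0254 with the library number as a term in edgeR, 0.0273 without WT 1, 0.0366 without both libraries numbered 1 and 0.0487 with GC offsets. These settings called 6.95%, 3.34%, 4.71%, 3.49%, 2.99% and 3.91% of all genes, in the same order. Over all 18 the adjusted p ranged from 0.00826 to 0.195, and the log2 fold change from 0.56 to 0.82. It was 0.72 without both libraries numbered 1 and 0.66 with GC offsets. Musk, the muscle kinase that Lrp4 activates, had 6.23, 3.46, 4.71 and 2.00 CPM in cKO libraries and 3.98, 2.51, 1.32 and 3.16 CPM in WT libraries, and its log2 fold change of 0.58 (SE 0.38, with 0.516 as the edgeR adjusted p) did not pass. Dok7, the adaptor of that kinase, had one of -0.41 (SE 0.16, with 0.212 as the edgeR adjusted p), and none of the 4 tested partners of Lrp4 in this complex passed. Markers of muscle and cartilage summed to 202, 69.3, 79.1 and 74.3 CPM in cKO libraries 1 to 4. In WT libraries 1 to 4 they summed to 113, 57.4, 57.3 and 56.6 CPM. Like Lrp4 and Musk, these sums were highest in library 1 of each group. Of these markers 8 of 13 were tested and none passed, and their part in the level of Lrp4 was not tested.

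Lrp3, a more distant relative with CUB domains, showed the smallest difference of the family. It had 95.1, 42.7, 71.2 and 62.8 CPM in cKO libraries, against 99.5, 50.6, 55.5 and 60.6 CPM in WT libraries. In each group library 1 was the highest and library 2 the lowest, and the groups overlapped almost entirely. The log2 fold change was 0.03 (SE 0.26, edgeR adjusted p = 0.98), and its 95% interval, from -0.48 to 0.54, covers changes in either direction. It was 0.08 without the libraries numbered 1, 0.01 with GC offsets and between -0.19 (without cKO 1) and 0.28 (without WT 1) with single libraries left out.

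Partners of the family were described through 9 lists. Over 131 distinct tested genes, family members left out, 5 were higher and 0 lower in cKO ganglia, or 3.82% called against 2.72% of all tested genes. The median log2 fold change was 0.09, with 79 values above 0 and 52 below. The ligands held 3 of the 5, out of 21 tested: Sparc, a matrix protein, Mdk, the growth factor midkine, and Apoe, the apolipoprotein that glia secrete. In this list 19 of 21 log2 fold changes were above 0, with a median of 0.34.

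Sparc had 2240, 2750, 2350 and 2510 CPM in cKO libraries 1 to 4, against 1570, 1440, 1730 and 1460 CPM in WT libraries 1 to 4 (log2 fold change 0.66, SE 0.10, edgeR adjusted p = 0.00856). Mdk had 50, 70.3, 51.0 and 71.9 CPM in cKO libraries, against 27.3, 32.4, 35.2 and 32.4 CPM in WT libraries (log2 fold change 0.93, SE 0.15, edgeR adjusted p = 0.012). Apoe had 1930, 2360, 2060 and 2220 CPM in cKO libraries, against 1580, 1120, 1560 and 1270 CPM in WT libraries (log2 fold change 0.63, SE 0.13, edgeR adjusted p = 0.0291). For all of these genes the groups did not overlap. The call of Sparc was lost without WT 4, that of Mdk without WT 2 or WT 4, and that of Apoe without WT 2, WT 4, cKO 2, cKO 3 or cKO 4.

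Markers of fibroblasts, glia, endothelial, mural and cycling cells had higher summed levels in every cKO library than in every WT library. Fibroblast markers summed to 7250 to 10600 CPM in cKO and 5210 to 6720 CPM in WT libraries. Of these, 5 of 8 passed with higher values, against 1.6% of all tested genes, and all 8 log2 fold changes were above 0. Glial markers, of which Apoe makes up most of the sum, ranged as given above for the reelin receptors. Among them 2 of 12 passed with higher values, Mbp and Apoe, and 11 of the 12 log2 fold changes were above 0. Apoe is also 1 of the 3 ligands that passed. Endothelial markers summed to 265 to 284 CPM in cKO and 157 to 219 CPM in WT libraries, and 3 of 8 passed with higher values. Mural cell markers summed to 285 to 387 CPM in cKO and 189 to 205 CPM in WT libraries, and 2 of 7 passed with higher values. All 8 endothelial and all 7 mural log2 fold changes were above 0. Macrophage markers summed to 154 to 240 CPM in cKO and 123 to 193 CPM in WT libraries, and none of 8 passed. Markers of cycling cells summed to 891 to 1310 CPM in cKO and 522 to 726 CPM in WT libraries, and 2 of 7 passed with higher values. Those of sensory neurons summed to 31.3 to 181 CPM in cKO and 31.4 to 78.5 CPM in WT libraries, with none of 7 passing. Those of chromaffin cells summed to 1740 to 2050 CPM in cKO and 1760 to 2080 CPM in WT libraries, with overlap. Only Cox4i2 and Ndufa4l2, 2 of 6, passed with higher values, while Pnmt, Chga, Chgb and Epas1 did not pass. No marker of these lists was at 0 in every library. Their part in the levels of the ligands, and of the receptors with higher values in cKO ganglia, was not tested.

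The other partners that passed were Gulp1 and Pcsk6. Gulp1, an adaptor that binds the tail of Lrp1, was the only 1 of 22 tail adaptors and sorting genes to do so, in a list whose median was -0.09. It had 45.9, 66.5, 59.0 and 54.5 CPM in cKO libraries, against 31.8, 39.7, 40.5 and 33.3 CPM in WT libraries (log2 fold change 0.64, SE 0.14, edgeR adjusted p = 0.0371). Pcsk6, a proprotein convertase, was the only 1 of 13 receptor cleavage genes to pass, in a list with a median of 0.04. It had 7.37, 5.97, 6.58 and 5.56 CPM in cKO libraries, against 4.35, 2.95, 2.63 and 2.98 CPM in WT libraries (log2 fold change 0.98, SE 0.19, edgeR adjusted p = 0.0273). Neither gene's groups overlapped. The call of Gulp1 was kept only when cKO 1 was the library left out, and that of Pcsk6 only when it was WT 1 or cKO 4.

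A further list held genes for proteins with LDL receptor class A repeats or for related sorting receptors, and Lrp2bp, also 1 of the megalin partners. Of its 13 tested genes none passed, and the median was 0.14. Lrp11 had 172, 153, 167 and 182 CPM in cKO libraries, against 213, 216, 204 and 212 CPM in WT libraries, without overlap (log2 fold change -0.33, SE 0.09, edgeR adjusted p = 0.0855). Sorl1, a sorting receptor for the amyloid precursor protein, had 16.2, 8.84, 12.1 and 9.28 CPM in cKO libraries, against 22.1, 18.5, 12.0 and 22.2 CPM in WT libraries (log2 fold change -0.69, SE 0.24, edgeR adjusted p = 0.167). Only WT 3 overlapped with the cKO values.

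**Figure D5:**
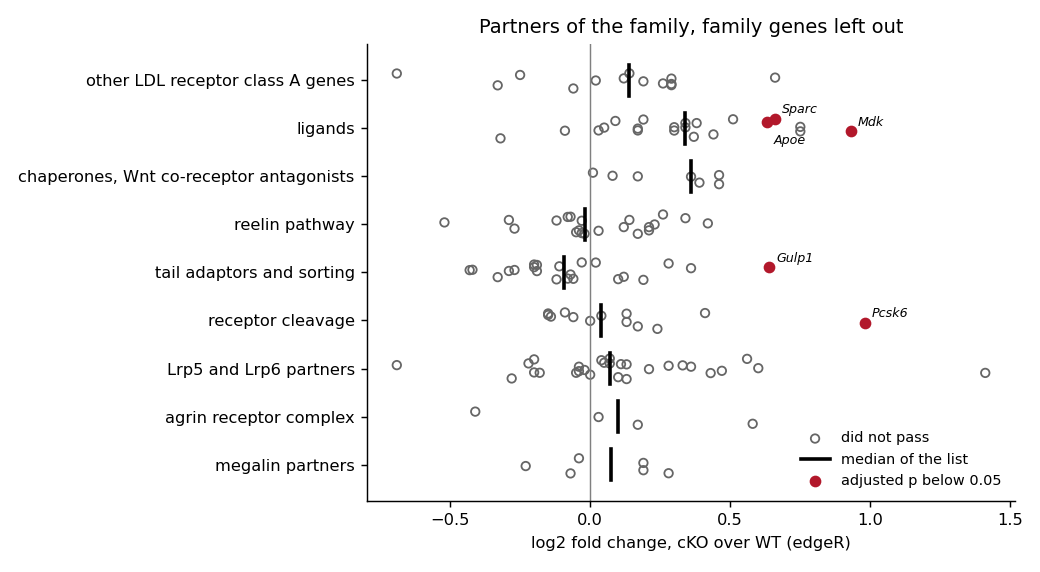
Log2 fold change of cKO over WT (horizontal axis) for the tested genes of 9 partner lists, family genes left out; each circle is a gene, black bars are list medians and filled red circles are genes with an adjusted p below 0.05. The 5 filled circles, Sparc, Mdk, Apoe, Gulp1 and Pcsk6, all lie to the right of 0. The highest medians are 0.34 for the ligands and 0.36 for the list of chaperones and Wnt co-receptor antagonists.

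The genes most like Lrp1b over the 8 libraries were sought by the root mean square difference of log2 CPM, each gene centred on its own mean, among 13963 tested genes with a mean of at least 1 CPM. The median of this difference was 1.087. The most alike was Kif1b itself (0.256), followed by Grin3a, a subunit of NMDA receptors (0.281), Ephb1, a receptor of B-class ephrins (0.341), Slc6a4, the serotonin transporter (0.356), and Fam196b (0.362); the next gene was at 0.368. Grin3a had 3.03, 4.60, 3.63 and 2.37 CPM in cKO libraries, against 9.56, 16.2, 9.45 and 12.8 CPM in WT libraries. As with Lrp1b, WT 2 and WT 4 were higher than WT 1 and WT 3. Kif1b was lowest in WT 3, as was Lrp1b, but highest in WT 1. Slc6a4, with 36.1, 59.5, 62.1 and 53.9 CPM in WT libraries, was lowest in WT 1. Since most of the variation of Lrp1b lies between the genotypes, any gene with a similar fall scores as alike.

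Lrp1b lies on the minus strand of chromosome 2, at 40595246 to 42653624 (GRCm38), and its span of 2058379 bases is the sixth longest of the 14464 tested genes with an annotated position, whose median span is 24.8 kilobases. Its 6 annotated inner genes, all pseudogenes or small RNAs, have no row in the table. Dbh, whose promoter drives Cre, lies 13.4 megabases away on the same chromosome. Where Cre itself lies in the genome was not examined, so the position of Dbh need not be that of Cre. Among 149 tested genes between Dbh and Lrp1b, 6 were higher and 0 lower in cKO ganglia, or 4.03% called against 2.72% of all tested genes (1.6% higher and 1.12% lower), and the median log2 fold change was -0.03. The 5 nearest tested genes on each side of Lrp1b lie 1100 to 6160 kilobases away. None of them passed with lower values in cKO ganglia. Their log2 fold changes lay on both sides of 0, from -0.17 (Gm16523) to 0.69 (Arhgap15). The only one that passed, Zeb2, a transcription factor gene, had 191, 183, 182 and 159 CPM in cKO libraries, against 129, 116, 95.2 and 122 CPM in WT libraries (log2 fold change 0.63, SE 0.11, edgeR adjusted p = 0.0203). Its exons overlap those of Zeb2os on the opposite strand, and its call was lost without WT 2, WT 4, cKO 2 or cKO 3.

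Other long genes were looked at as a group, most of them shorter than Lrp1b. Of 52 tested genes spanning at least 1 megabase, 6 were lower in cKO ganglia, or 11.5% against 1.12% of all tested genes, and 1 was higher. Without Lrp1b there were 5 lower genes among 51, or 9.8%, and the median log2 fold change was -0.13, with 33 values below 0 and 18 above. The lower ones were the neuronal adhesion genes Cntnap2, Cntn4 and Cntn5, Lingo2, a leucine-rich repeat membrane protein gene, and Sgcz, a sarcoglycan gene. Cntnap2 had 42.8, 34.0, 43.7 and 51.3 CPM in cKO libraries, against 89.6, 89.0, 67.6 and 96.8 CPM in WT libraries (log2 fold change -1.0, SE 0.15, edgeR adjusted p = 0.00856). Its call held under all 18 alternatives, which none of the other 4 calls did. The log2 fold changes were -1.26 for Cntn5, -1.06 for Cntn4, -0.80 for Lingo2 and -1.55 for Sgcz, which had at most 23 counts in a library. Lrrc4c, a receptor of netrin-G1, was the gene that was higher, with a log2 fold change of 0.50 (SE 0.11, with 0.0372 as the edgeR adjusted p). Among these, leaving out WT 2 or WT 4 ended the calls of Cntn5, Cntn4, Lingo2 and Lrrc4c. Leaving out cKO 3 did the same for all of them, cKO 2 for Lingo2 and Lrrc4c, cKO 1 for Cntn4 and Lrrc4c, cKO 4 for Cntn4 and WT 3 for Lrrc4c, while the call of Sgcz was lost whichever of the 8 libraries was left out. The summed level of neuron markers, also lower in cKO libraries, is given above, and its part in these values was not tested.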

How the data were processed

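The authors deposited a table of whole-number read counts per gene symbol for 8 libraries, 1 per animal, which is the unit used here. The submitters' processing notes name STAR and mm10 as aligner and build, and libraries were made with TruSeq v2, per the labels' protocols. The version of STAR, the program and annotation behind the counts and any strand setting are not given in the sources, so reads of overlapping genes may be shared or dropped.

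Counts were tested with edgeR 4.0.16 (R 4.3.3, TMM, filterByExpr, robust quasi-likelihood fit on group alone), with p-values adjusted over 14592 genes and 0.05 as the threshold. SEs are the size of the log2 fold change over the root of its F statistic. CPM use TMM-scaled library sizes, and log2 CPM a prior count of 2. Positions, GC content and sequences come from GENCODE vM21 (GRCm38, also called mm10), to which 98.1% of 23351 names were matched. Levels per kilobase use the union of annotated exons. Chi-square values per gene between replicates were 7.72 to 55.5, more than sampling noise, so each library counted once.

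The members and lists were chosen with earlier results of these data known. Named genes were the members, the targeted gene, from each list up to 4 genes that passed or else the 2 with the smallest p, the 5 genes most like Lrp1b and its neighbours; Reln and the long genes were named after their values were seen. Alternatives were DESeq2 1.42.0 (size factors in edgeR, and the Wald test), limma 3.58.1 voom, library size alone, no filter, 1 CPM in at least 4 libraries, the library number as a block and each library left out. Leaving out both libraries numbered 1 or numbered 4, and offsets over 20 GC bins, were added after seeing the data. Steps were tested on simulated counts. GC content was known for 99.1% of tested genes.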

Additional observations from a re-analysis of the deposited data

Results flagged for a closer look

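Reln was far higher in 1 cKO library than in the others: 77.8 CPM in cKO 1, against 52.8 to 56.7 CPM in the other 3 cKO libraries. The gap to the nearest library was 0.847 of the range of the group, above Dixon's 95% critical value for 4 samples. Of 80 groups of 4 examined over 40 named genes, 1 stood out in this way, where chance gives about 1 in 20. Without cKO 1 the log2 fold change of Reln was 0.18, against 0.34 with it. No family member had such a library.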

How the results depend on the processing

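Over 40 named genes and 18 alternatives, 620 of 717 log2 fold changes kept their direction and side of the threshold, 68 lost a call, 25 gained one and 4 changed sign. All 4 were those of Lrp3: -0.08 without WT 2, -0.05 without WT 3, -0.01 without WT 4 and -0.19 without cKO 1, in a range from -0.19 to 0.28 over single libraries left out. The cause was not tested. The count of 397 genes called was 1012 with DESeq2's Wald test and 65 without both libraries numbered 4, and from 74 to 514 with single libraries left out (79 without WT 2, 249 without WT 3, 74 without WT 4, 147 without cKO 2 and 137 without cKO 3). Of the 8 members other than Lrp1b, 1, always Lrp4, was called with library size alone, DESeq2's Wald test, GC offsets and without the libraries numbered 1, and 0 to 1 with single libraries left out. The 5 calls among partners were 15 with DESeq2's Wald test, 8 without the libraries numbered 1, 0 without those numbered 4, 9 with GC offsets and 0 to 7 with single libraries left out, with the lowest count without WT 4. The 1 call among the tested genes nearest to Lrp1b was 0 without the libraries numbered 4 and 0 to 1 with single libraries left out. The 7 calls of long genes were 14 with DESeq2's Wald test, 3 without the libraries numbered 4 and 2 to 8 with single libraries left out, with 2 without WT 2, WT 4 or cKO 3 and 4 without cKO 1 or cKO 2. With the replicate number as a block, 687 genes, 1 member (Lrp4) and 9 partners were called; deviations of same-numbered libraries correlated at 0.725, 0.352, -0.302 and 0.265, not all positive, and the labels do not say what a number marks, so whether the numbers pair the animals is not settled and the block is not in the reported fit. Library size alone moved the median of all log2 fold changes to 0.048. Lrp2 and Fzd10 are limited by their counts.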
